A study of Mus musculus with 10 samples.

Results

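The S100 proteins are small calcium-binding proteins of vertebrates, and 8 of their genes were followed here: S100a1, S100a4, S100a6, S100a10, S100a11, S100a13, S100a16 and S100b. They are 8 of the 17 S100 genes among the 60676 rows of a mouse count table, matched by Ensembl identifier, and the other 9 S100 genes are described beside them. The 8 were named with their levels in these same libraries known. The levels, calls and adjusted p-values below are therefore a description of the libraries, and no count over the 8 genes supports anything beyond them. A fixed level did not separate the 8 from the others: S100a16, which is included, had at most 2.26 CPM (the count scaled to a common library total), and S100a3, which is not, reached 2.72 CPM.

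Transcripts were measured by RNA sequencing in 10 libraries from MC38, a mouse colon adenocarcinoma line, and B16, a mouse melanoma line. Every library came from cells with a knockdown of Sdc1, the gene of the heparan sulphate proteoglycan syndecan-1, which had been stimulated with interferon gamma (IFNγ, given as 10 ng/ml for 24 h). The MC38 groups were the knockdown, the knockdown with a c30 mutant of Sdc1 and the knockdown with an ect mutant. The B16 groups were the knockdown and the knockdown with wild-type Sdc1, and each of the 5 groups had 2 libraries. Unstimulated cells, cells with no knockdown and empty-vector cells are not analysed here, and the labels describe neither the mutants, nor the knockdown construct, nor whether the cells were clones. Nor do they say whether the 2 libraries of each group were made from separate cultures. The p-values therefore measure the spread between these libraries, which may be technical.

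An S100 protein folds around a pair of EF-hand loops and usually works as a dimer: calcium opens a groove that grips a partner protein. Inside the cell the partners include annexins, myosin and p53, and outside it some S100 proteins bind the receptor RAGE. Most S100 genes lie side by side on mouse chromosome 3, while S100b lies on chromosome 10. S100b protein is a classical marker of melanocytic tumours, and S100a4, also called metastasin or fibroblast-specific protein, has been studied for its part in cell motility.

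Library totals lay between 11349447 and 15041133 counts. Sdc1 was at 24.5 and 29.99 CPM in the MC38 knockdown, 97.0 and 99.5 CPM with c30, 22.4 and 25.2 CPM with ect, 40.7 and 43.1 CPM in the B16 knockdown and 71.1 and 56.9 CPM with wild type. It passed with c30 (log2 fold change 1.86, edgeR adjusted p = 6.18e-31) and did not with ect (-0.17, edgeR adjusted p = 0.325) or in B16 (0.64, edgeR adjusted p = 0.269). The B16 value passed with DESeq2 (adjusted p = 0.0355) and, with edgeR, without either wild-type library (0.000834 and 1.10e-10), with no filter on low counts (6.84e-05), with the replicate block (0.0112) and with all 10 libraries (0.0069). The 10 melanocyte markers summed to 22662 to 23905 CPM in B16 and to 293 to 420 CPM in MC38, mostly Gpnmb, with Oca2 and Slc45a2 at 0 in all MC38 libraries. Of 10 epithelial markers, 2 averaged at least 1 CPM in MC38, Cdh1 and Krt8, while Cdx2, Cldn4 and Epcam were below that. Leukocyte markers summed to 8.52 to 12.5 CPM over both lines, with Cd3e and Nkg7 at 0. The wild-type B16 libraries were the least alike of any group, with a chi-square per degree of freedom of 20.01 between them against 3.79 to 6.27 in the other 4 groups. The row with the most counts, which has no symbol, held 0.695% and 2.42% of the counts in replicates 1 and 2 of that group. In the other libraries it held 0.621% to 2.38%, and its part in the chi-square values was not tested.

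The windows upstream of 4 members are shown as examples of both directions between the lines: S100a6, S100a4 and S100a11 were higher in MC38 and S100b in B16. They come from RefSeq on build GRCm38.p6, where 7 of the 8 members had an entry, and each is the plus strand from 250 bases before the annotated start, ended where the first annotated exon begins. Capitals mark matches on either strand to the TATA box (TATAAA), the CCAAT box, the GC box of Sp1 factors (GGGCGG), the AP-1 motif (TGAGTCA), the M-box of MITF (TCATGTG), the STAT motif (TTCNNNGAA) and the SOX motif (ACAAAG).
S100a6 (chr3:90612644-90612881): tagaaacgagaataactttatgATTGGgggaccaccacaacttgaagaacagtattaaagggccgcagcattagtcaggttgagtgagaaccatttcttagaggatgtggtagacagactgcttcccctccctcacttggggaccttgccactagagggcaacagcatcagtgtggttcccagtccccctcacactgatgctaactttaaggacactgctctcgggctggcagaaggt
S100a4 (chr3:90603520-90603769): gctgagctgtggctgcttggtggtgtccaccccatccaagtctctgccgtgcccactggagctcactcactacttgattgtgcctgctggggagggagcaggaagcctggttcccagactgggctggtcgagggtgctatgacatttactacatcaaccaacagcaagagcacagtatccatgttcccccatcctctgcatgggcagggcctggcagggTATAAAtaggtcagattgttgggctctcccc
S100a11 (chr3:93520246-93520487): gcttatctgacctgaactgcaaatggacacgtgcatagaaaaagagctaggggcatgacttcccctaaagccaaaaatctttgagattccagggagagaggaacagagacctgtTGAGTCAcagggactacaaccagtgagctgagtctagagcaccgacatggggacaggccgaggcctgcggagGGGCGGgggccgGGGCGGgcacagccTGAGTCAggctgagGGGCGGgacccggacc
S100b (chr10:76253586-76253835): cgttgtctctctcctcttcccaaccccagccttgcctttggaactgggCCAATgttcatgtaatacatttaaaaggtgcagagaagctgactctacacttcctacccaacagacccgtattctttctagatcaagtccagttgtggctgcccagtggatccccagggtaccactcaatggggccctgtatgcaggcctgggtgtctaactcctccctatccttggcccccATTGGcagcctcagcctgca
S100a4 had TATAAA at 31 to 26 bases before its start, a motif held by 12.4% of 32851 upstream windows of 250 bases. S100a11 had GGGCGG at 3 places and TGAGTCA, the letters that AP-1 factors bind, at 2 places, and these motifs were in 32.7% and 4.46% of windows. S100b had CCAAT at 2 places and S100a6 at 1, against 33.8% of windows. The matches did not overlap each other in these 4 windows. None of the 4 held TCATGTG (3.25% of windows), TTCNNNGAA (7.02%) or ACAAAG (16.5%), which says only that these letters are absent from the bases shown. The matches are a description of the sequence and not of binding.

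S100a6, which encodes calcyclin, was the member with the highest level in MC38 and differed most between the lines among the members with counts in every library. It had 1224 and 1067 CPM in the MC38 knockdown, 1299 and 1268 CPM with c30 and 1226 and 1188 CPM with ect. In B16 it had 5.35 and 5.92 CPM in the knockdown and 5.62 and 6.63 CPM with wild type. Each MC38 library thus lay far above each B16 library. In bulk RNA, fewer cells with a transcript and less of it per cell cannot be told apart, here and below. Between the knockdown groups the counts, 31010 in MC38 and 138 in B16, gave a 204-fold higher level in MC38 (95% counting interval 173 to 243), and the edgeR log2 fold change of B16 over MC38 was -7.63 (standard error, SE, 0.10).

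S100a10 and S100a11 each bind an annexin. S100a10, or p11, cannot bind calcium and joins annexin A2 at the plasma membrane. It had 655 and 587 CPM in the MC38 knockdown, 619.9 and 625 CPM with c30 and 595 and 593 CPM with ect, against 168 and 158 CPM in the B16 knockdown and 161 and 163 CPM with wild type. S100a11, a partner of annexin A1, had 478 and 495 CPM in the MC38 knockdown, 478 and 460.3 CPM with c30 and 451 and 461 CPM with ect. Its B16 values were 129.8 and 132 CPM in the knockdown and 119.8 and 99.3 CPM with wild type. Both genes stood at like folds between the lines, with log2 fold changes of B16 over MC38 of -1.89 (SE 0.07) for S100a10 and -1.85 (SE 0.07) for S100a11, a 3.71-fold and a 3.62-fold higher level in MC38. A pseudogene copy of S100a11 in the table, S100a11-ps, had 0 counts in all 10 libraries, and how reads with several matches were counted is not given.

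S100a4 was low in MC38 and close to absent in B16. It had 2.32 and 3.01 CPM in the MC38 knockdown (32 and 40 counts), 4.23 and 3.22 CPM with c30 and 4.13 and 3.79 CPM with ect. Both B16 knockdown libraries had 0 counts and both wild-type libraries 1 count. Set against the floor of 3 counts per library, S100a4 was at least 10.9-fold higher in the MC38 knockdown than in the B16 knockdown. The 7 fibroblast and endothelial markers summed to 102 to 152 CPM in MC38 and 10.5 to 13.8 CPM in B16, mostly Pdgfra and Pdgfrb. None was at 0 over all libraries of a line, but Lum and Kdr had at most 0.133 and 0.264 CPM in MC38. Of the 7, 4 averaged at least 1 CPM in MC38 and 2 in B16. The part of these markers in the S100a4 difference was not tested.

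**Figure D1:**
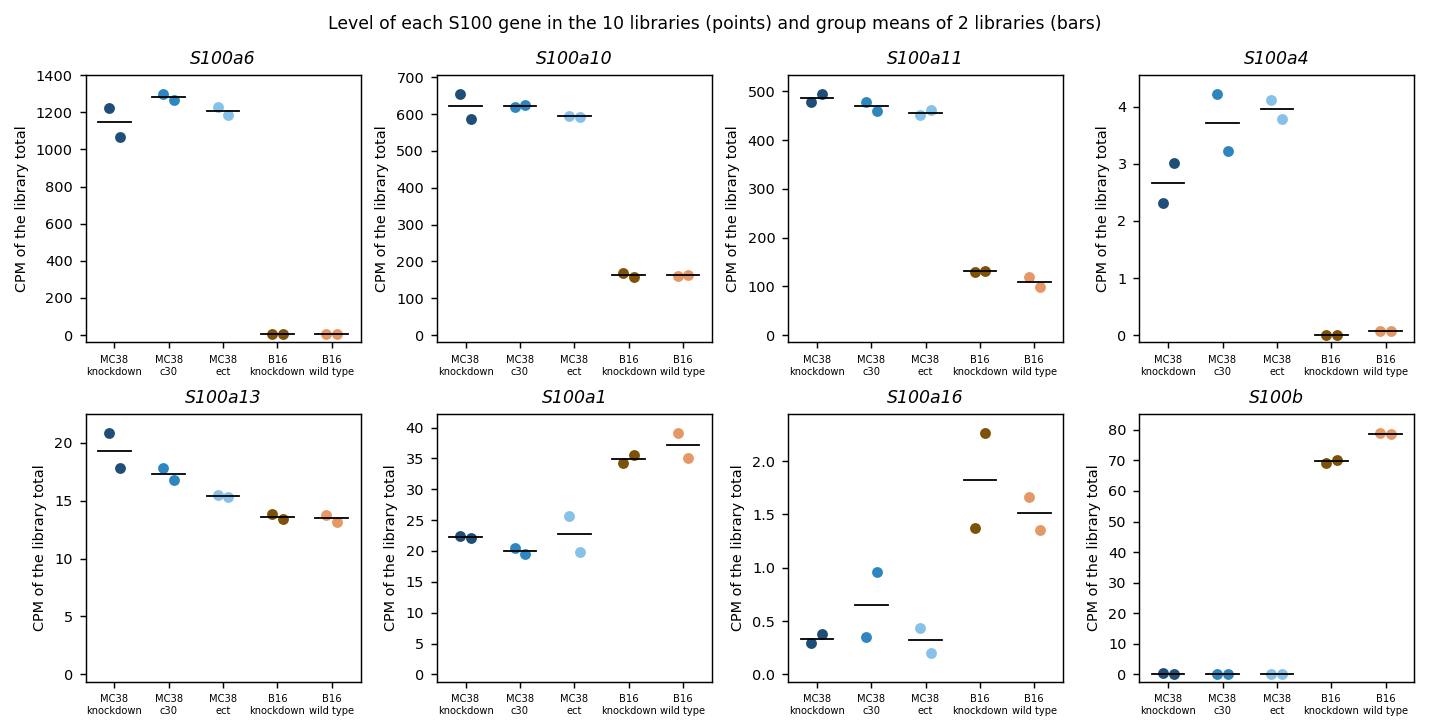
Level of each of the 8 S100 genes in CPM of the library total (vertical axes, each from 0) in the 5 groups (horizontal axes); points are libraries and bars are means of 2 libraries. For S100a6, S100a10, S100a11, S100a4 and S100a13 every MC38 point lies above every B16 point, and for S100a1, S100a16 and S100b the order of the lines is the opposite.

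S100b went the other way. It had 69.2 and 70.1 CPM in the B16 knockdown and 78.9 and 78.6 CPM with wild type, while the 6 MC38 libraries held between 0 and 4 counts each. The knockdown groups held 1712 counts in B16 and 4 in MC38, a 471-fold higher level in B16 (95% counting interval 184 to 1730). The c30 replicate 2 library carried 2.44 CPM of Dct and 2.70 CPM of Tyrp1, against at most 0.352 and 0.617 CPM in the other MC38 libraries. It held 2 counts of S100b and the ect libraries 2 and 4. Counts this low cannot show whether any S100b came with the Dct and Tyrp1 counts, and this was not tested. Sox10, the transcription factor of the melanocyte and glial lineages, was at 293 to 398 CPM in B16 and at most 0.0871 CPM in MC38.

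S100a1 and S100a13 differed less than 2-fold between the knockdowns of the lines. S100a1, best known in heart and skeletal muscle, where it regulates calcium release and uptake, had 22.5 and 22.1 CPM in the MC38 knockdown, 20.4 and 19.6 CPM with c30 and 25.6 and 19.9 CPM with ect. Its B16 values were higher, at 34.3 and 35.5 CPM in the knockdown and 39.1 and 35.1 CPM with wild type (log2 fold change of B16 over MC38 in the knockdowns 0.69, SE 0.12). S100a13, which takes part in the release of FGF1 and interleukin 1 alpha, had 20.8 and 17.8 CPM in the MC38 knockdown, 17.8 and 16.8 CPM with c30 and 15.5 and 15.3 CPM with ect. It had 13.8 and 13.4 CPM in the B16 knockdown and 13.8 and 13.2 CPM with wild type, so that the lines did not overlap (log2 fold change of B16 over MC38 in the knockdowns -0.46, SE 0.14). Without MC38 knockdown replicate 1 this difference was -0.35 and did not pass (edgeR adjusted p = 0.0905). S100a1 and S100a13 start head to head and overlap by 98 bases in the RefSeq annotation, and with no strand setting given the reads of that stretch cannot be told apart.

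S100a16 was near the detection limit in MC38. It had 3 to 5 counts in 5 MC38 libraries and 11 in c30 replicate 2, the library with the Dct and Tyrp1 counts, whose part in this value was not tested. In B16 it had 1.37 and 2.26 CPM in the knockdown and 1.66 and 1.36 CPM with wild type, or 17 to 26 counts. The knockdown groups differed 5.38-fold, higher in B16 (95% counting interval 2.59 to 12.5).

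Of the 8 members, 8 passed between the knockdown groups of the lines, 3 higher in B16 and 5 lower (edgeR adjusted p under 0.05), where 68.2% of all 16877 genes tested passed (33.8% higher and 34.3% lower). The knockdown libraries of the lines did not overlap for 8 of 8, against 84.4% of genes. Over all 10 libraries, 8 of 8 did not overlap between the lines, against 65.8% of genes. The median absolute log2 fold change was 2.17 over the 8 and 0.72 over all genes. The summed level of the 8 was 2191 to 2440 CPM in the MC38 libraries and 398 to 422 CPM in the B16 libraries.

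Scaled to transcript length, as CPM per kilobase of the annotated coding transcripts, the order in MC38 was S100a6, S100a10, S100a11, S100a1, S100a13, S100a4, S100a16 and S100b, with means over 6 libraries of 2028, 1054, 921, 34.6, 24.2, 6.93, 0.483 and 0.102. Neighbours in this order did not overlap over the 6 libraries. S100a16 and S100b, at 0.221 to 1.06 and 0 to 0.196, rest on at most 11 and 4 counts in a library. In B16 the order was S100a10, S100a11, S100a1, S100b, S100a13, S100a6, S100a16 and S100a4, with means over 4 libraries of 279.8, 235, 57.4, 50.01, 18.9, 9.84, 1.84 and 0.0798. The range of S100a1 there was 54.7 to 62.4 and that of S100b 46.6 to 53.2, so that these 2 were close but apart. S100a6 thus went from the first place in MC38 to the sixth in B16, and S100b from the last to the fourth.

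The S100 genes beside S100a6 on chromosome 3, from S100a3 to S100a7a, were low in MC38 and nearly silent in B16. Their MC38 means were at most 3.45 CPM, that of S100a4. S100a16, in the same stretch, was the higher in B16, with means of 0.436 CPM in MC38 and 1.66 CPM in B16. In RefSeq order the stretch runs from S100a1 through S100a13, S100a14, S100a16, S100a3, S100a2, S100a4, S100a5, S100a6, S100a7a, S100a8 and S100a9. S100a3, best known in hair cuticle, had 1.73 to 2.72 CPM in MC38 and 1 count over all 4 B16 libraries. S100a7a, known from skin, had 1.39 to 2.996 CPM in MC38 and 0 counts in B16, at least 7.84-fold lower in the B16 knockdown against the floor of 3 counts per library. S100a5, S100a14 and S100a2 averaged 0.456, 0.257 and 0.204 CPM in MC38 and had 0 counts in B16. S100a8 had 0 counts in all 10 libraries, and S100a9 at most 2 counts in any library. These last 2 genes encode calprotectin, a protein of neutrophils and monocytes. S100g had 0 counts in every library and S100z at most 2 in any. Beyond S100a1, Chtop, Snapin and Ilf2 were at 145 to 176, 41.2 to 50.1 and 176 to 180.3 CPM as means of the lines, and Npr1, the next gene out, was at 2.49 CPM in MC38 and 0.0608 CPM in B16. S100a11 and S100a10 lie next to each other, and the 4 protein-coding genes on either side, from Hrnr to Tdpoz3, had at most 0.0881 CPM in any library. These neighbours were chosen by position after the levels were seen.

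**Figure D2:**
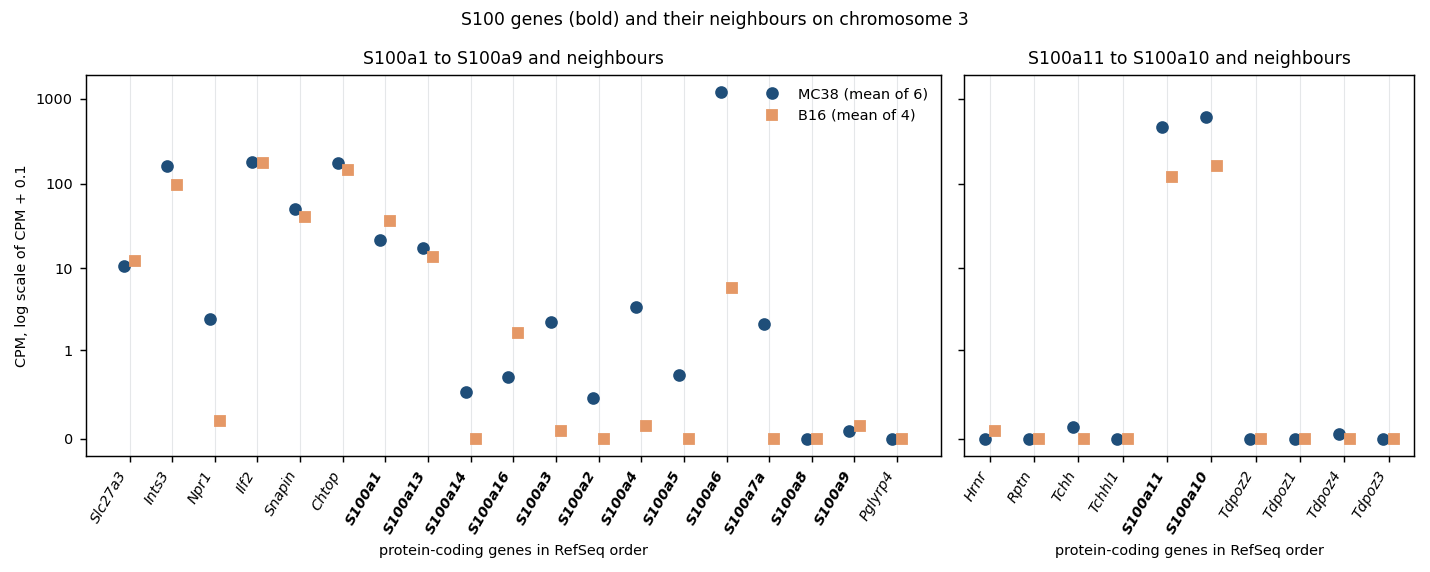
Mean level in MC38 (circles, 6 libraries) and B16 (squares, 4 libraries) of protein-coding genes in their RefSeq order on chromosome 3 (horizontal axes, S100 genes in bold), in CPM on a log scale of CPM + 0.1. From S100a3 to S100a7a the B16 squares lie at or near 0, apart from S100a6 at 5.88 CPM. In this stretch the MC38 circles other than that of S100a6 lie at or below 3.45 CPM. S100a1 (21.7 and 36.0 CPM in MC38 and B16) and S100a13 (17.3 and 13.5 CPM) are well above 0 in both lines.

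In MC38, setting c30 beside the knockdown asks which transcripts differ once this mutant of Sdc1 is present. S100a6 rose by 1.12-fold with c30, from 1144 ± 114 to 1286 ± 6.10 CPM (SD, n = 2 each, on TMM-normalized library sizes), a log2 fold change of 0.17 (SE 0.05, edgeR adjusted p = 0.0209). It was the 1 member that passed of 6 tested, where 7.75% of 15031 genes passed, 3.3% higher and 4.45% lower. The call rested on the low knockdown replicate 2: without that library the log2 fold change was 0.07 (edgeR adjusted p = 0.336). The call was also lost without c30 replicate 1 or 2, although the log2 fold changes, 0.16 and 0.17, stayed close to the main value. With DESeq2 (0.17, adjusted p = 0.317) and with all 10 libraries in one edgeR fit (0.17, adjusted p = 0.26) it was lost as well. S100a4 had 0.49 (95% interval -0.11 to 1.081, edgeR adjusted p = 0.395), although both c30 libraries lay above both knockdown libraries. S100a10 and S100a11 had 0.01 (95% interval -0.08 to 0.09) and -0.05 (-0.13 to 0.04). S100a1 had -0.15 (-0.39 to 0.09) and S100a13 -0.16 (-0.41 to 0.10). The libraries of the groups did not overlap for 5 of the 6, against 48.1% of all genes tested. S100a16 and S100b had too few counts in MC38 to be tested. Among the melanocyte, epithelial, leukocyte, fibroblast and endothelial markers, Gpnmb, Cdh1, Pdgfra and Pdgfrb were lower with c30 (log2 fold changes -0.31, -0.73, -0.46 and -0.41). They were also lower with ect (-0.47, -1.13, -0.57 and -0.46), and their part in the S100 values was not tested.

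The comparison of ect with the knockdown asks the same of the other mutant, whose presence is not seen in the Sdc1 counts, and shares the knockdown libraries with the c30 comparison. Of 6 members tested 0 passed, against 8.16% of all genes (3.55% higher and 4.61% lower), and 0 passed with DESeq2 or limma-voom. At an unadjusted edgeR p under 0.05 there was 1 of the 6, against 20.4% of all genes. That member was S100a13, with 19.3 ± 2.21 CPM in the knockdown and 15.5 ± 0.261 CPM with ect (SD, n = 2 each), or -0.32 on the log2 scale (SE 0.13, edgeR adjusted p = 0.127). S100a4 had 0.58 (95% interval -0.0045 to 1.16, edgeR adjusted p = 0.259) with no overlap between the groups. S100a6 had 0.09 (SE 0.05, edgeR adjusted p = 0.294) and passed without knockdown replicate 1 (0.19, adjusted p = 0.000164), which leaves the lower of the knockdown libraries. S100a10 had -0.05 (95% interval -0.14 to 0.03) and passed without knockdown replicate 2 (-0.13, edgeR adjusted p = 0.0334). S100a11 had -0.08 (SE 0.04) and S100a1 0.03 (SE 0.12). The groups did not overlap for 3 of the 6, against 48.6% of genes.

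Between c30 and ect, 0 of 6 members passed by edgeR, DESeq2 or limma-voom, where edgeR passed 0.299% of all genes (0.133% higher and 0.166% lower). At an unadjusted edgeR p under 0.05 there were 0 of 6, against 8.72% of all genes. The log2 fold changes of c30 over ect lay between -0.18 (S100a1) and 0.16 (S100a13). That of S100a6 was 0.08 (95% interval -0.01 to 0.17) and that of S100a4 -0.09 (-0.66 to 0.48). The groups did not overlap for 4 of the 6, against 38.7% of genes.

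In B16 the comparison of wild-type Sdc1 with the knockdown gave 0 calls among 7 members tested and 0 among 14336 genes by edgeR, a share of 0%. At an unadjusted p under 0.05 there were 2 of 7 members and 791 genes (5.52%), and DESeq2 passed 11 genes and limma-voom 0, no member among them. The 2 members were S100b and S100a11. S100b had 69.2 ± 0.0258 CPM in the knockdown and 79.7 ± 0.301 CPM with wild type (SD, n = 2 each), or 0.20 on the log2 scale (SE 0.09, edgeR adjusted p = 0.891). These SDs, and that of S100a11 in the knockdown, lie below counting error and understate the spread. S100a11 had 129.9 ± 0.209 and 111 ± 13.98 CPM (-0.23, SE 0.10, edgeR adjusted p = 0.890), and without wild-type replicate 1, which left the lower of the wild-type values, it passed at -0.36 (adjusted p = 9.50e-05). Without that library 1295 genes passed. S100a6 (0.15, 95% interval -0.29 to 0.59), S100a1 (0.12, -0.11 to 0.34), S100a10 (0.02, -0.14 to 0.19), S100a13 (0.01, -0.30 to 0.32) and S100a16 (-0.23, -1.04 to 0.58) had intervals that included 0. The groups did not overlap for 3 of 7, against 34.9% of genes, and S100a4 was not tested in B16.

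The B16 effect was also set against the mean of the c30 and ect effects in MC38, a difference in which the line and the form of Sdc1 cannot be told apart. Of the 8 members 0 passed by edgeR, DESeq2 or limma-voom, where edgeR passed 0.486% of 16877 genes (0.29% higher and 0.196% lower). At an unadjusted edgeR p under 0.05 there were 0 of 8, against 11.1% of genes. S100a11 passed without B16 wild-type replicate 1 (log2 difference -0.31, edgeR adjusted p = 0.00325).

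**Figure D3:**
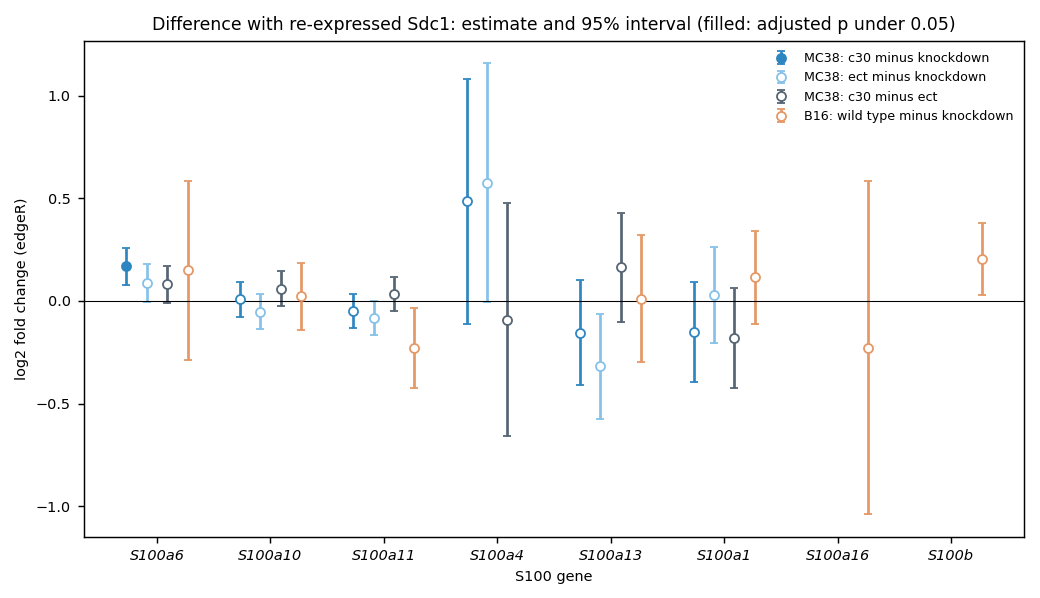
Log2 fold change (vertical axis) of each S100 gene (horizontal axis) in the 3 MC38 comparisons and the B16 comparison, with 95% intervals from the edgeR standard errors; filled points passed at an adjusted p under 0.05. S100a6 with c30, at 0.17, is the 1 filled point, and the widest MC38 intervals belong to S100a4.

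The annexin partners differed between the lines by folds close to those of their S100 genes. Anxa2 had 2415 and 2466 CPM in the MC38 knockdown and 584 and 570.2 CPM in the B16 knockdown (log2 fold change of B16 over MC38 -2.04, SE 0.07, edgeR adjusted p = 1.01e-20). Anxa1 had 969 and 935 CPM against 279 and 272 CPM (-1.75, SE 0.06, edgeR adjusted p = 1.80e-19). Counted within each library, there were 23.8 to 28.7 S100a10 counts per 100 Anxa2 counts in MC38 and 27.7 to 34.2 in B16, ranges that overlapped. For S100a11 there were 49.4 to 56.5 counts per 100 Anxa1 counts in MC38 and 37.8 to 48.4 in B16, ranges that did not overlap. The lowest B16 value was that of wild-type replicate 2. These ratios take no account of gene length, which is the same in all libraries.

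Both annexin genes passed with c30 and Anxa2 with ect, while S100a10 and S100a11 passed with neither. With c30, Anxa2 fell by 0.16 on the log2 scale (SE 0.03, edgeR adjusted p = 0.000869), to 2182 and 2174 CPM, and Anxa1 fell by 0.17 (SE 0.04, edgeR adjusted p = 0.00183). With ect, Anxa2 fell by 0.11 (SE 0.03, edgeR adjusted p = 0.0341) and Anxa1 had -0.10 (SE 0.04, edgeR adjusted p = 0.0998). The Anxa2 call with c30 was lost without c30 replicate 1 (log2 fold change -0.15) and the Anxa1 call without c30 replicate 2 (-0.14). The Anxa2 call with ect was lost without knockdown replicate 2 (-0.10), ect replicate 1 (-0.14) or ect replicate 2 (-0.09). It was also lost with no filter on low counts (-0.12, edgeR adjusted p = 0.0714). Anxa1 passed with ect without knockdown replicate 2 (adjusted p = 0.0234). In one edgeR fit of all 10 libraries the 3 calls did not pass (adjusted p = 0.245 for Anxa2 and 0.191 for Anxa1 with c30, and 0.486 for Anxa2 with ect). In B16 Anxa2 did not pass with wild type (-0.15, SE 0.09) but did without wild-type replicate 1 (-0.24, edgeR adjusted p = 0.00127). The difference between an S100 gene and its annexin was not tested.

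**Figure D4:**
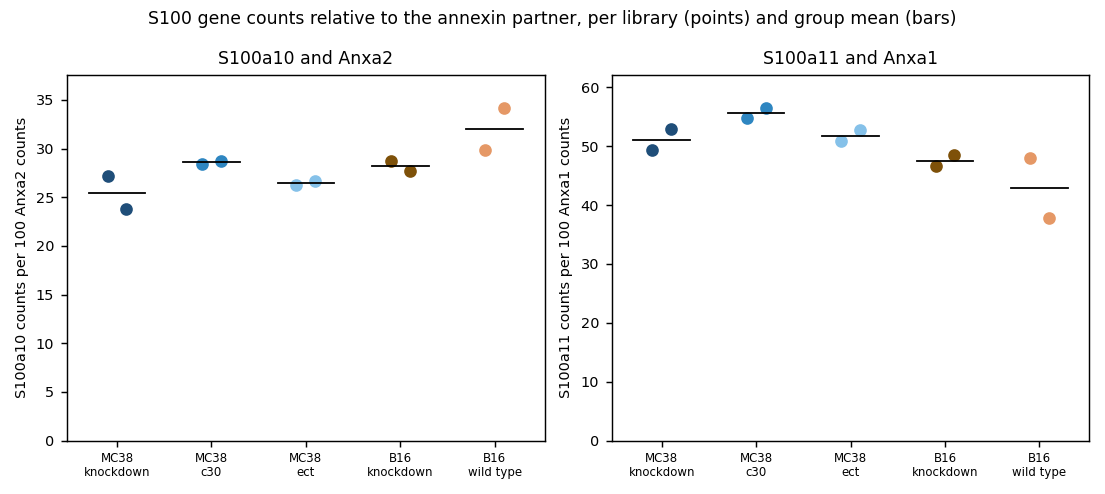
Counts of S100a10 per 100 counts of Anxa2 and of S100a11 per 100 counts of Anxa1 (vertical axes from 0) in the 5 groups (horizontal axes); points are libraries and bars are means of 2. The S100a10 values lie between 23.8 and 34.2 in both lines together, although each gene differed over 3-fold between the lines. The S100a11 values do not overlap between the lines, at 49.4 to 56.5 in MC38 and 37.8 to 48.4 in B16.

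Among 22 genes of S100 protein partners, 19 were tested in MC38. With c30, 2 were higher and 4 lower (median log2 fold change -0.06, against 0.0013 over all genes), and with ect 0 were higher and 5 lower (median -0.10). Of all genes tested, 3.3% were higher and 4.45% lower with c30, and 3.55% and 4.61% with ect. Ahnak, a giant protein held at the membrane by S100a10 and annexin A2, was lower with c30 (-0.16, SE 0.03, edgeR adjusted p = 0.000193) and with ect (-0.18, SE 0.03, edgeR adjusted p = 4.25e-05). Ppfibp1, the liprin bound by S100a4, was higher with c30 (0.22, SE 0.05, edgeR adjusted p = 0.00119). With ect the scaffold gene Iqgap1 (-0.17, SE 0.04) and Anxa5 (-0.17, SE 0.04) were lower. Without c30 replicate 1 the Ahnak call with c30 was lost, although the log2 fold change stayed at -0.16. The Ppfibp1 call was lost without c30 replicate 2 (0.18) and that of Iqgap1 without ect replicate 1 (-0.14). None of these 5 calls held with all 10 libraries in one edgeR fit (adjusted p from 0.0912 to 0.300). Between the lines 6 partners were higher in B16 and 10 lower of 20, where 33.8% of all genes were higher and 34.3% lower. Ahnak was 9.62-fold lower in B16 (edgeR adjusted p = 2.52e-23). In B16 with wild type 0 of 20 partners passed by edgeR, where 0 of all 14336 genes passed.

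Receptors of S100 proteins and the plasminogen system, whose proteins S100a10 helps to hold at the cell surface, were also listed. Ager, the gene of RAGE, had 1.498 to 3.40 CPM in MC38 and 3.01 to 4.53 CPM in B16 (log2 fold change between the knockdowns 1.24, SE 0.34, edgeR adjusted p = 0.00208). It did not pass with c30 (0.38, SE 0.39) or ect (0.34, SE 0.38). Of 6 receptor genes, 5 were higher in B16 than in MC38 and 1, Tlr4, lower, where 68.2% of all genes passed. The largest difference was that of Mcam, also called MUC18 and itself a melanoma antigen, at 3.69 to 5.66 CPM in MC38 and 468 to 581 CPM in B16. Tlr4 was lower with c30 (-0.28, SE 0.09, edgeR adjusted p = 0.0426), where 7.75% of all genes passed. It was the 1 receptor gene that passed in a comparison within a line. That call was lost without knockdown replicate 1, where the log2 fold change was -0.15. Without c30 replicate 1 or 2 it was also lost, although the estimates were -0.30 and -0.26. It was lost too with DESeq2 (-0.28, adjusted p = 0.216), limma-voom (-0.27, adjusted p = 0.0805) and all 10 libraries in one edgeR fit (-0.28, adjusted p = 0.266).

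Plaur, the urokinase receptor gene, had 53.1 and 53.6 CPM in the MC38 knockdown, 71.6 and 73.8 CPM with c30 and 71.8 and 68.3 CPM with ect. It rose with both mutants (0.45, SE 0.07, edgeR adjusted p = 2.95e-06, and 0.40, SE 0.07, edgeR adjusted p = 2.84e-05). Both calls held with each library left out, with DESeq2, with limma-voom and with all 10 libraries. Eno1, an enolase that binds plasminogen, was lower with c30 (-0.11, SE 0.03) and ect (-0.14, SE 0.03). These 2 calls were lost with all 10 libraries (-0.11 and -0.14, edgeR adjusted p = 0.595 and 0.484). The first was also lost without knockdown replicate 2 (-0.10) or c30 replicate 1 or 2 (-0.10 and -0.13). The second was lost without ect replicate 1 (-0.13). Plaur and Eno1 were the 2 genes of 6 tested that passed in either comparison, where 7.75% of all genes passed with c30 and 8.16% with ect. Between the lines 3 of 7 plasminogen system genes were higher in B16 and 4 lower, where all genes split into 33.8% and 34.3%.

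Other EF-hand genes, which share the calcium-binding fold without being S100 genes, were lower for 2 of 20 with c30 (Rcn1 and Calu) and for 3 of 20 with ect (Capns1, Calu and Rcn1), and 0 were higher. Over all genes 4.45% and 4.61% were lower. Counts of 2 and 3 of 20 lie above these shares but are small, and the difference was not tested. Their median log2 fold changes were -0.09 and -0.05. Calu, a calcium-binding protein of the secretory pathway, had -0.15 (SE 0.04, edgeR adjusted p = 0.00933) with c30 and -0.13 (SE 0.04, edgeR adjusted p = 0.0187) with ect. Leaving out either library of the mutant group ended the calls of Calu and Rcn1 in both comparisons, with log2 fold changes from -0.21 to -0.14. Leaving out ect replicate 1 ended that of Capns1 (-0.14). The Rcn1 call with ect was also lost without knockdown replicate 1 (-0.12) and with DESeq2 (-0.15, adjusted p = 0.0644). With all 10 libraries none of the 5 passed (edgeR adjusted p from 0.126 to 0.403). Between the lines 6 of 21 were higher in B16 and 8 lower, with a median of -0.09, and Gca, which encodes grancalcin, had 4.61 to 5.27 CPM in B16 and 0 counts in MC38.

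Ranked by the likeness of their 5 group means (log2 CPM, each gene centred on its own mean), the genes nearest to S100a6 among 8058 with at least 20 CPM were Rftn1, F2r and Them6. F2r encodes the thrombin receptor PAR1. Their mean absolute differences from S100a6 were 0.04, 0.06 and 0.07 on the log2 scale. Near to S100a10 were Nfat5 and Ergic1, at 0.01 and 0.02, and nearest to S100a11 were Mcu, the mitochondrial calcium uniporter gene, Rpusd1 and Nfkb2, at 0.02 to 0.04. The 5 means share their libraries, and the difference between the lines makes up most of the likeness.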

How the data were processed

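The deposited table holds raw counts per gene, 1 column for each of 10 libraries. The submitters' processing notes name the build GRCm39 and, with no role or order, HTSeq, featureCounts, DESeq2, Trimmomatic and HISAT2 2.0.5. The sources used here give no strand setting. Libraries were made with a standard mRNA kit and sequenced paired-end, per the labels' protocols. Symbols were matched by Ensembl identifier for 51884 of 60676 rows.

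Models were fitted in R 4.3.3 with edgeR 4.0.16. Low genes were removed with filterByExpr, libraries were scaled by TMM, dispersions were estimated robustly, and the 2-sided quasi-likelihood test was used with Benjamini-Hochberg adjustment over all genes tested. The MC38 comparisons shared a fit of 6 libraries, the B16 comparison used 4, and those of the lines all 10. Groups came from the titles. Intervals of log2 fold changes are 95% intervals from the SE. Counting intervals are exact (Poisson or conditional binomial), and like the floor of 3 counts (0.199 to 0.264 CPM) they cover counting error only. Per-library values are CPM of the library total. Some SDs of 2 libraries, as for S100a6 with c30 and S100a13 with ect, lie below counting error and understate the spread. Transcript lengths were medians over coding transcripts of GENCODE M21.

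The members and gene lists were chosen with earlier results of these data known. Genes were named by a rule: all members, the other S100 genes in the table, Anxa1, Anxa2, Ager, Sdc1, up to 3 called genes per list and comparison, and the 3 genes most like each of the 3 most abundant members. Some genes that the rule names are not reported here. S100a2 was added to the S100 genes, and the neighbours, S100 pseudogene, motifs and marker genes named were chosen, after the data were seen. The tests were checked on counts simulated with the same spread between libraries in every comparison. That spread was smaller than the coefficients of variation estimated for the B16 fit (8.68%) and the fit of all 10 libraries (6.65%). The check therefore does not cover the spread of those fits. Alternatives used DESeq2 1.42.0 and limma 3.58.1, and figures matplotlib 3.10.9.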

Additional observations from a re-analysis of the deposited data

Results flagged for a closer look

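Among the members and the genes of the lists, the difference between the B16 effect and the mean MC38 effect passed for Plaur, Gpnmb and Cdh1. Of all 16877 genes tested, 0.486% passed. None of the 3 passed with wild type in B16 itself (log2 fold changes -0.37, 0.03 and 1.77, edgeR adjusted p = 0.890, 0.981 and 0.877). The MC38 mean includes ect, where Sdc1 counts did not rise (-0.17). For Plaur the wild-type effect in B16 minus the mean of the c30 and ect effects in MC38 was -0.80 on the log2 scale (SE 0.15, edgeR adjusted p = 0.00887). It had 21.8 and 24.2 CPM in the B16 knockdown and 19.8 and 15.1 CPM with wild type, while both MC38 mutants lay above the MC38 knockdown. The call was lost with limma-voom (adjusted p = 0.0558), without MC38 knockdown replicate 1 (0.0974) or 2 (0.0747), and without B16 knockdown replicate 2 (0.0916). Line and form of Sdc1 cannot be told apart in this difference. The difference was 0.42 for Gpnmb (SE 0.08, edgeR adjusted p = 0.00793), and it was lost without MC38 knockdown replicate 2, c30 replicate 2, ect replicate 2 or either B16 knockdown library (adjusted p from 0.0541 to 0.0994). It was 2.69 for Cdh1 (SE 0.63, edgeR adjusted p = 0.0469), which had at most 0.871 CPM in B16, and it was lost with limma-voom (0.121), with a stricter filter on low counts (0.0519), with the replicate block (0.0693) and without any 1 of the MC38 or B16 knockdown libraries, c30 or ect libraries (0.0554 to 0.322).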

How the results depend on the processing

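Of 482 alternative values for the members' log2 fold changes, 472 kept their side of the threshold, 6 lost a call and 4 gained one, all named above. No value that passed in the main or the alternative fit changed direction. Direction was not compared where neither passed. S100a10 with c30, for example, went from 0.007 to -0.006 without a filter on low counts. Of 699 for the other genes named, 65 lost and 8 gained a call. Another scaling of the libraries moved 9 of 40 group means of the members beyond their SD. The number of genes called was more sensitive. With DESeq2 it was 513 for c30, 600 for ect, 19 for c30 against ect, 11 in B16 and 126 for the difference between the lines' effects, against 1165, 1227, 45, 0 and 82 with edgeR. With all 10 libraries in one fit the first 4 were 254, 249, 8 and 27. Without a filter on low counts the last 2 were 42 and 211, and limma-voom gave 28 for the last. With one library left out they ranged from 464 to 992 for c30, 776 to 984 for ect, 18 to 44 for c30 against ect, 3 to 1295 in B16 and 19 to 1278 for the difference (the lone library of a group is then assumed to vary like the others). The highest B16 and difference counts came without wild-type replicate 1, and without replicate 2 they were 326 and 434. Replicate number as a block gave 15 in B16 and 49 for the difference, moved the other counts by less than 1.5 times and changed no member's call. Same-numbered libraries did not deviate together (r from -0.19 to 0.07 between groups). Such correlations cannot exclude that the numbers pair the libraries, and the labels do not say. The crossed pairing in B16, chosen after seeing the data, gave 5. Depth limits S100a4, S100a16 and S100b in the line where each is low.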
